A study of Mus musculus with 31 samples.

Results

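Expression in the brain of male Dll1 mutant mice was compared with wild-type brain on dual-colour cDNA arrays. The 8 arrays were chosen by their sample labels from 31 arrays of a study that also covered liver (8 arrays), spleen (8) and thymus (7). They came from 4 mutant males aged 17 weeks, and for each mouse a dye-swapped pair of arrays was hybridized, so that its RNA carried Cy3 on one array and Cy5 on the other. The second channel of all 8 arrays held a single pool of brain RNA from wild-type males aged 18 weeks, for which the labels list 4 animals where the labelling protocol names 6. Each labelling used 20 µg of total RNA. The labels name the mutant mice only as Dll1. The study describes heterozygotes for the Dll1tm1Gos allele on the C3HeB/FeJ background, but it differs from the labels in the number and age of the mice and in the amount of RNA, and it names another array platform, which leaves uncertain whether these samples are the ones it describes.

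Delta-like 1, the product of Dll1, is a transmembrane ligand that activates Notch receptors on neighbouring cells. Receptor cleavage by ADAM proteases and gamma-secretase releases an intracellular fragment that joins the DNA-binding protein RBPJ and switches on repressors of the Hes and Hey families. In the developing brain this exchange keeps a part of the precursor cells undifferentiated while their neighbours become neurons. The study picked brain with this role in mind, and the comparison asks which transcripts of the adult mutant brain differ from wild type.

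A measurement was the deposited log2 ratio of the 2 RNAs at a spot, called a row here, of which the table had 20794. The sources do not say which RNA is the numerator. It was read as mutant over pool, which is likely because the labels put the mutant RNA of every array in the first channel and the pool in the other, and because the study expresses its own ratios as mutant against wild type. If it were pool over mutant, every sign below would turn. Genes were assigned by taking, for each row, the gene listed 11 places before it in the probe table, which names 12760 rows of 9026 genes. This displacement was inferred from the values, and names in the last part of the table are uncertain. The 4 Cy3 arrays (those with the mutant RNA in Cy3) used 20301 to 20549 values each, and the 4 Cy5 arrays used 16152 to 20002. Mouse 4 lacked the most values, 22.3% of rows on its Cy5 array. Channel intensities were not used here, so neither signal over background nor the level of any tissue marker was known, and the labelled tissue could not be checked against its markers.

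The 2 orientations of the dye swap did not give the same ratios, and this touches every result below. Between different mice, the Cy3 arrays correlated with Pearson's r of 0.35 to 0.42 over rows (6 pairs), and the Cy5 arrays with r of -0.01 to 0.10 (6 pairs). The 2 arrays of one mouse correlated with r of -0.11 to 0.06 (4 pairs). These values describe rows that share a slide and a pool, and carry no test. On the Cy3 arrays, different rows of the same gene were also weakly correlated (r of 0.09 to 0.13 per array), which was not seen on the Cy5 arrays (-0.02 to 0.00). When a dye term was added to a limma model of all 8 arrays, 0 of 19102 rows had a dye effect at an adjusted p under 0.05 (smallest adjusted p = 0.0535), and 4697 had one at an unadjusted p under 0.05. The part of the dyes in the results was not tested further, and the mean of each orientation is given beside many of the values and drawn for the 24 leading rows.

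**Figure D1:**
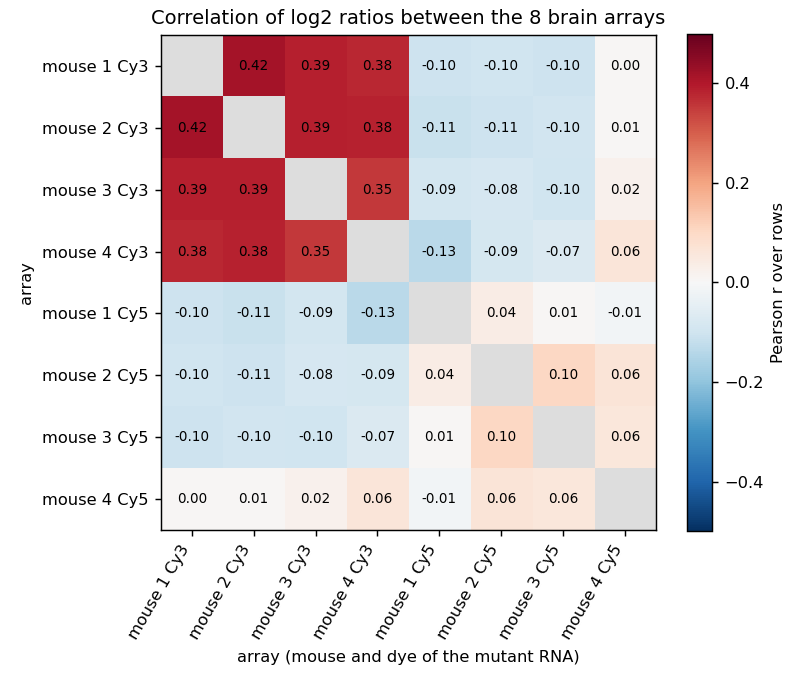
Pearson correlation of log2 ratios over rows for each pair of the 8 brain arrays, named by mouse and by the dye of the mutant RNA. The 4 Cy3 arrays correlate with each other at 0.35 to 0.42, and the next highest pair, of Cy5 arrays, is at 0.10.

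No single row passed the test in brain. Each mouse entered as the average of its 2 arrays, when neither was missing, and the 4 mice were tested against a ratio of 0 with limma (an intercept-only fit with moderated variances and Benjamini-Hochberg adjustment over all rows tested). Of 19102 rows with at least 3 mice, 0 were higher and 0 were lower at an adjusted p under 0.05 (0.0% in each direction), and the smallest adjusted p was 0.42. At an unadjusted p under 0.05 there were 1385 higher rows (7.25%) and 849 lower rows (4.44%). The median of the row means was 0.04. With each array centred on its median the unadjusted split turned, to 1059 higher and 1405 lower rows, so that the share of higher rows went from 62.0% to 43.0%. The pool is a single control sample, whose own spread between animals is not part of the test.

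The Cy3 arrays alone gave a different count. In the same fit on these 4 arrays, 734 rows were higher (3.57%) and 699 lower (3.4%) of 20546 tested, at an adjusted p under 0.05 from limma. The smallest adjusted p in this fit was 0.044, so every call lay between that value and the threshold of 0.05. On the Cy5 arrays alone, 0 of 19438 rows passed in either direction (smallest adjusted p = 0.754), with 846 higher and 418 lower rows at an unadjusted p under 0.05. The 699 rows that were lower on the Cy3 arrays (median -1.11) had a median of 0.16 on the Cy5 arrays, and 157 of them, or 22.5%, lay below 0 there, against 45.0% of all rows tested. The 734 rows that were higher on the Cy3 arrays (median 1.36) had a median of -0.32 on the Cy5 arrays, with 31.5% above 0 there against 55.0% of all rows. Rows called with the mutant RNA in one dye were thus less often on that side of 0 with the dyes swapped than rows in general.

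The leading higher rows held genes of varied function. Of the 12 named rows with the smallest p, Igsf3, an immunoglobulin superfamily membrane protein, had log2 ratios of 1.68, 1.23, 0.81 and 1.43 in mice 1 to 4 (mean 1.29, SD 0.37, n = 4, limma adjusted p = 0.42). All 4 mice lay above 0, but its mean was 2.29 on the Cy3 arrays and 0.29 on the Cy5 arrays. Mlst8, a subunit of both mTOR kinase complexes, had 0.83, 1.43, 0.91 and 1.16 (mean 1.08, SD 0.27). Its orientation means were nearly equal, 1.09 and 1.07, and it was above 0 on all 8 arrays. Its second row had a mean of 0.38. Gprc5c, an orphan receptor of the retinoic acid-inducible family, had 0.94, 0.85, 0.68 and 1.01 (mean 0.87, SD 0.14) and was likewise above 0 on all 8 arrays (0.97 and 0.77 by orientation). The others on one side on all arrays were Aqp2, a water channel known from the kidney collecting duct (mean 0.95, SD 0.21), and Cep295, a centriole protein (mean 0.99, SD 0.22). A second row of Cep295 did not follow, with a mean of -0.26.

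The remaining higher rows had less regular ratios. Oxct2b, a ketone body transferase known from testis, had a mean of 1.04 (SD 0.21), and Ppp2r3c, a regulatory subunit of protein phosphatase 2A, had 0.99 (SD 0.28), with -0.40 at its other row. Dnajc14, a chaperone of the endoplasmic reticulum, had 1.15 (SD 0.45). Dpp3, a dipeptidyl peptidase, had 1.11 (SD 0.45, with 1.66 and 0.56 by orientation), and Spock1, a brain proteoglycan, had 0.99 (SD 0.28, with 1.81 on the Cy3 arrays and 0.17 on the Cy5 arrays). Pnliprp1, a lipase-related protein of the exocrine pancreas, had 0.97 (SD 0.31, with 1.65 and 0.30 by orientation) and 0.53 at its 2 rows. Lyz2, the lysozyme of macrophages and microglia, had 1.05 (SD 0.42) with nearly all of it on the Cy5 arrays (0.04 and 2.06 by orientation), and -0.02 at its other row. All of these had the adjusted p of 0.42 that many rows share.

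The leading lower rows included several genes with roles in neurons. They were grouped after their values were seen, and the share of such genes among all rows was not counted. Cyfip2, a component of the WAVE complex that regulates actin at synapses, had log2 ratios of -0.68, -0.62, -0.74 and -1.21 in mice 1 to 4 (mean -0.81, SD 0.27, n = 4, limma adjusted p = 0.42). It was below 0 on all 8 arrays (orientation means -1.31 and -0.32), and its other 3 rows had means of -0.23, -0.35 and -0.48. Pafah1b1, which encodes the dynein regulator LIS1 and is needed for neuronal migration, had -0.76 (SD 0.27, from -1.28 and -0.24 by orientation), with -0.51 and -0.37 at its other rows. Chrm1, the M1 muscarinic acetylcholine receptor of cortex and hippocampus, had -1.69, -0.70, -0.65 and -1.42 (mean -1.11, SD 0.52). Its ratio was of similar size in both orientations, -0.93 and -1.30. Psd, an exchange factor for the small GTPase ARF6, had -1.02 (SD 0.50) and orientation means of -0.81 and -1.24.

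The other leading lower rows held genes of varied function. Ank, a membrane protein that exports pyrophosphate, had the smallest SD of the 12 lower rows, with -0.72, -0.81, -0.64 and -0.78 (mean -0.74, SD 0.07), with every array below 0. Its neighbouring row had a mean of -0.57. Ghitm, a protein of the inner mitochondrial membrane, was also below 0 on all 8 arrays (mean -0.72, SD 0.16), but its other row measured in 4 mice had a mean of 0.60. Cab39, an activator of the kinase LKB1, had -0.76 (SD 0.15, from -1.31 and -0.21 by orientation), and Adss, an enzyme of AMP synthesis, had -0.78 (SD 0.27). Prr13 had -0.98 (SD 0.25) and Fam110b -1.05 (SD 0.36), the latter with -0.07 at its other row. Pik3ap1, an adaptor for PI3-kinase in immune cells, had -1.08 (SD 0.61, from -0.38 and -1.78 by orientation) and 0.06 at its 2 rows. Foxj1, the transcription factor of motile cilia and ependyma, had -0.88 (SD 0.32, from -1.45 and -0.31 by orientation) at one row, 0.66 at another and 0.08 at the third, so that its rows did not give one direction.

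**Figure D2:**
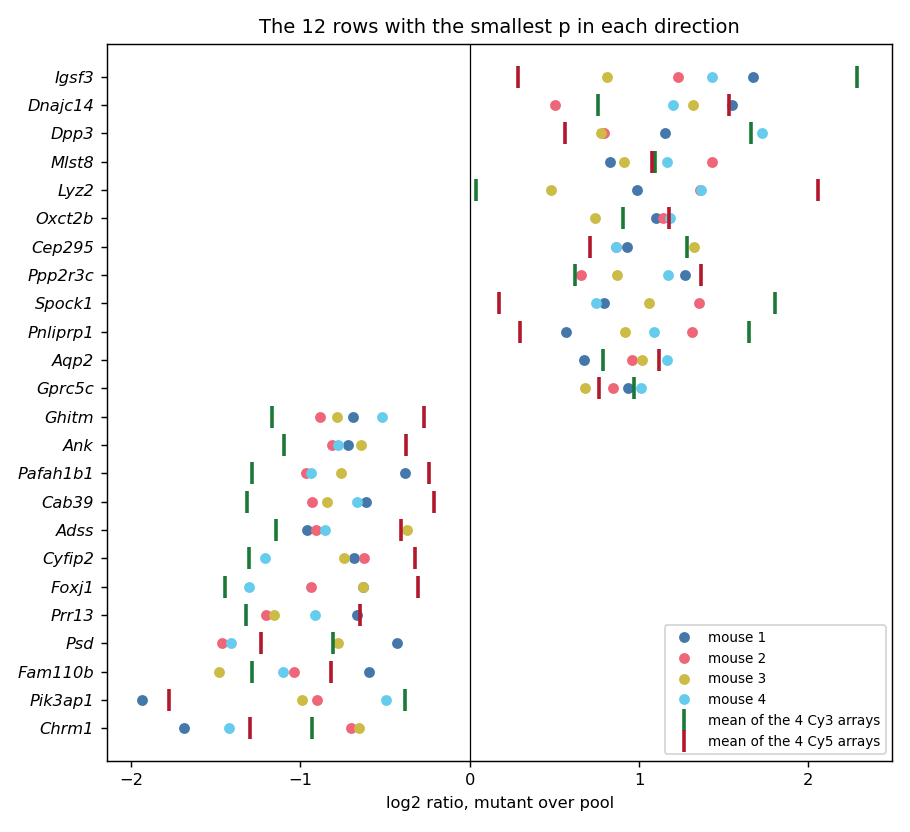
Log2 ratios (mutant over pool) of the leading named rows, 12 higher and 12 lower, with 1 dot for each mouse (mean of its 2 arrays) and ticks for the means of the 4 Cy3 and the 4 Cy5 arrays. The dots of a row lie on one side of 0, while the 2 ticks of several rows are more than 1 log2 unit apart. Examples are Igsf3, Lyz2 and Spock1 among the higher rows and Foxj1, Cab39 and Pik3ap1 among the lower rows.

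Neither row of Dll1 itself passed the test. At its first row the log2 ratios of mice 1 to 4 were 0.13, 0.54, 0.29 and -0.37 (mean 0.15, SD 0.38, n = 4, limma adjusted p = 0.764). The mice lay on both sides of 0, and the orientation means were -0.38 and 0.67. At its second row, among the rows of uncertain name, they were -0.12, -0.52, -0.25 and -0.54 (mean -0.35, SD 0.20, adjusted p = 0.443), with all 4 mice below 0. The position of the probes relative to the mutation was not known, so these rows do not check the genotype.

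The other Notch ligands and receptors varied around 0. The list of 11 genes had 12 rows tested, of which 6 had a mean below 0, and its median was 0.00 against 0.04 for all rows. Jag1, another Notch ligand, had a mean of 0.03 (SD 0.79), and Notch1 and Notch2 had -0.16 (SD 0.70) and -0.19 (SD 0.50). Dner, a Delta-like protein of neurons, had -0.16 (SD 0.23). Notch3, the receptor of vessel wall cells, had a mean of 1.34 (SD 0.96, n = 3 mice), with 0.12 on the Cy3 arrays and 2.48 on the Cy5 arrays.

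Among the target genes, one row of Hey1 and the row of Hes5 were below 0 in all 4 mice. Hey1 had -0.43, -0.74, -0.63 and -0.76 in mice 1 to 4 (mean -0.64, SD 0.15, unadjusted p = 0.0103, adjusted p = 0.42 from limma), and its other 2 rows, of uncertain name, had means of -0.14 and -0.39. The first Hey1 row had a mean of -1.06 on the Cy3 arrays and -0.22 on the Cy5 arrays. Hes5, the Hes gene most closely tied to Notch activity in neural stem cells, had -0.24, -0.39, -0.31 and -0.50 (mean -0.36, SD 0.11). For Hes5 the mean on the Cy3 arrays was -0.97 and that on the Cy5 arrays 0.25. Hes1 lay on the other side, at 0.36 (SD 0.70), with mouse 4 below 0. In all, 13 of 21 rows of the target list had a mean below 0 (46.6% of all rows did), and the median was -0.06. Of its 20 rows with 4 mice, 3 were below 0 in all of them (17.6% of all such rows were), so the list did not exceed rows in general.

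Genes that process the ligand and receptor were as mixed. Of 33 rows tested for 24 genes, 17 had a mean below 0 (46.6% of all rows did), and the median was -0.02. Neurl1a, a ubiquitin ligase whose fly relative acts on Delta, had 0.63 at one row (SD 0.21, 4 of 4 mice above 0) and -0.30 at the other. At the first of these rows the orientations had opposite signs, with -0.37 on the Cy3 arrays and 1.63 on the Cy5 arrays. Pofut1, which adds the O-fucose that Notch needs for ligand binding, had 0.27 (SD 0.15) and Mib1, a ubiquitin ligase for Notch ligands, had 0.50 (SD 0.48). The orientation means of Pofut1 were also of opposite sign, -0.32 and 0.86, while those of Mib1 were 0.49 and 0.50. Psen2, a catalytic subunit of gamma-secretase, had -0.43 and 0.05 at its 2 rows. Adam10, the protease of the first receptor cut, had -0.25 (SD 0.27).

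**Figure D3:**
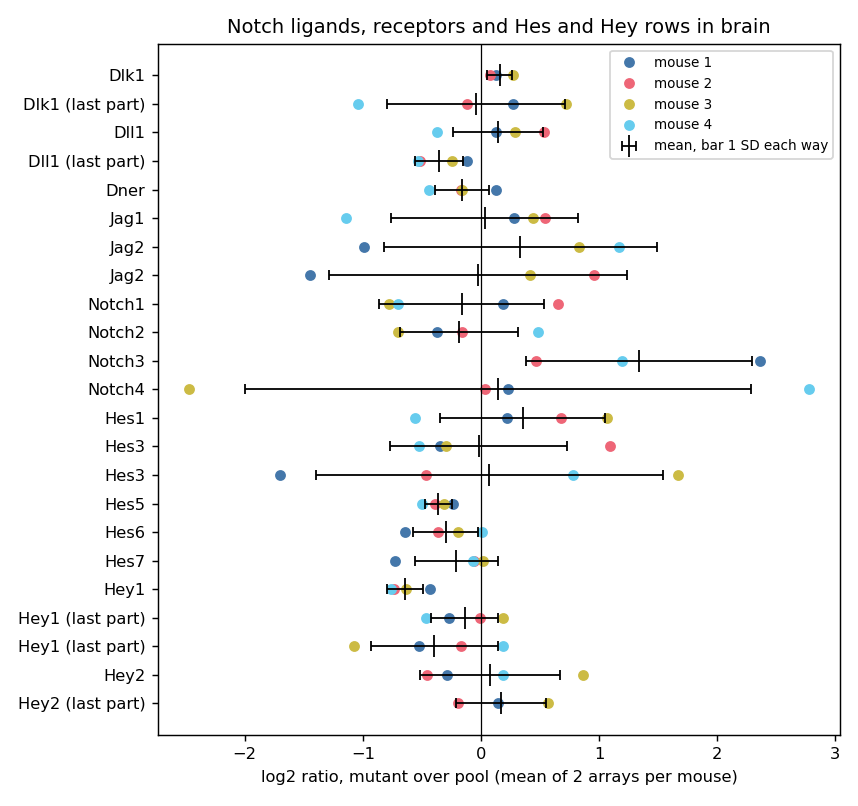
Log2 ratios (mutant over pool) in each of the 4 mice at the rows of Notch ligands, receptors and Hes and Hey genes, with the mean and 1 SD each way over mice. The first Dll1 row spans -0.37 to 0.54, while the 4 mice of Hes5 and of the first Hey1 row lie below 0, as do those of 17.6% of all rows with 4 mice.

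Many gene lists had a median below 0, mostly on the Cy3 arrays. The lists, 13 of cell type markers and 25 of pathways, are described without a test. All their rows are named rows, and these lay lower than the unnamed ones, with a median of -0.005 against 0.11. Of the 38 lists, 26 had a median below that of the named rows. Of the named rows themselves, 50.4% had a mean below 0 and 19.5% of those with 4 mice were below 0 in all of them, and 3.82% were called lower and 2.76% higher on the Cy3 arrays. On the Cy3 arrays 26 lists had a median below 0 on each of the 4 arrays and 2 had one above 0 on each, while on the Cy5 arrays 1 list was below 0 on each array and 8 were above. Named rows as a whole showed the same signs at a smaller size, with medians of -0.09 to -0.03 on the Cy3 arrays and 0.05 to 0.18 on the Cy5 arrays. Lower ratios in bulk tissue could mean fewer cells of a type or less RNA per cell, and these cannot be told apart. The low medians were seen mostly with the mutant RNA in Cy3, and the part of the dyes in them was not tested.

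Neuronal markers were low on the Cy3 arrays and near 0 on the Cy5 arrays. Of 29 rows for 19 genes, 23 had a mean below 0, and 14 of the 22 rows with 4 mice were below 0 in all of them (17.6% of all such rows). The median was -0.32 over the mean ratios, -0.74 on the Cy3 arrays and 0.02 on the Cy5 arrays. Syn1, a phosphoprotein of synaptic vesicles, had log2 ratios of -0.66, -0.59, -0.33 and -0.50 in mice 1 to 4 (mean -0.52, SD 0.14), from orientation means of -1.11 and 0.07. Vsnl1, a neuronal calcium sensor, had -0.86, -0.43, -0.48 and -0.79 (mean -0.64, SD 0.22), with both orientations below 0 (-0.82 and -0.46). Camk2a, the alpha subunit of the calcium- and calmodulin-dependent kinase of excitatory synapses, had means of -0.53 and -0.40 at its 2 rows.

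Pathways of the synapse and the neuronal cytoskeleton had medians of the same size. In the synaptic vesicle cycle 38 of 47 rows had a mean below 0 (median -0.27, with -0.54 and 0.06 by orientation). Among them were Atp6v0a1, a subunit of the proton pump that fills vesicles (mean -0.64, SD 0.05), and Syp, the vesicle protein synaptophysin (-0.49, SD 0.19). By orientation Atp6v0a1 had -1.33 and 0.06, and Syp -1.18 and 0.20. Cltc, the clathrin heavy chain, was below 0 on all 8 arrays at one row (-0.55, SD 0.12), and Clta, a clathrin light chain, above 0 on all 8 at one row (1.19, SD 0.58) but at -0.50 at a row of uncertain name. In the list of cytoskeleton and transport 43 of 55 rows were below 0 (median -0.32, with -0.73 and 0.14 by orientation), and 11 of its 55 rows were called lower on the Cy3 arrays, where 3.4% of all rows were. Tubb4a, a brain beta-tubulin, had means of -0.74 and -0.68 at its 2 rows, with Cy3 means of -1.59 and -1.42 and Cy5 means of 0.11 and 0.05. Mapt, which encodes tau, had 5 rows with means between -0.36 and 0.94 and so no common direction. Calm3, one of the calmodulin genes, had means of -0.56, -0.64 and -0.64 at its 3 rows, the third of uncertain name. The orientation means of the second row were -1.30 and 0.02.

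Not all neuronal lists behaved alike. Genes of neurogenesis and progenitors had a median of -0.29 (12 of 16 rows below 0), with -0.56 and 0.22 by orientation. Genes of GABA and glycine transmission had a median of -0.32 (7 of 10 rows below 0) and neuropeptide genes one of -0.28 (12 of 18). Gad2, which makes GABA, had a mean of -0.56 (SD 0.56), Slc32a1, the vesicular GABA transporter, -0.37 (SD 0.13), and Penk, the precursor of enkephalins, -0.41 (SD 0.16). The means on the Cy3 and the Cy5 arrays were -0.95 and -0.16 for Gad2, -1.14 and 0.40 for Slc32a1, and -0.83 and 0.01 for Penk. In contrast, voltage-gated ion channels had a median of 0.08 (8 of 18 rows below 0), monoamine and acetylcholine genes 0.01 (6 of 14) and axon guidance genes -0.02 (18 of 36). Drd4, a dopamine receptor, had 0.66 (SD 0.38). Neurod2, a transcription factor of excitatory neurons, and Gria1, an AMPA receptor subunit, were each below 0 on all 8 arrays, with means of -0.52 (SD 0.25) and -0.48 (SD 0.38). Fosb, an immediate early gene, was above 0 on all 8 (0.75, SD 0.38), whereas its list had a median of -0.06.

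Among glia, astrocyte markers had the lower median. Of 23 rows for 15 genes, 19 had a mean below 0 (median -0.39, with -0.86 on the Cy3 arrays and 0.12 on the Cy5 arrays), and 8 of 25 rows were called lower on the Cy3 arrays (3.4% of all rows). Apoe, the lipid carrier made by astrocytes, had ratios of -0.59, -0.55, -0.51 and -0.71 in mice 1 to 4 (mean -0.59, SD 0.08), from -1.18 and 0.01 by orientation. Slc1a3, the glutamate transporter GLAST, had -0.41, -0.33, -0.44 and -0.38 (mean -0.39, SD 0.05), and Cst3, cystatin C, had -0.46 (SD 0.08). Slc1a2, the transporter GLT-1, had 3 rows with means between -0.57 and -0.32 and another, measured in 3 mice, at 0.60. Aldh1l1, another marker of the list, went the other way, with 4 of 4 mice above 0 at one row (mean 0.96, SD 0.89). Its orientation means were 0.69 and 1.23. Gfap, the astrocyte filament protein and a Notch-responsive gene, spread from -1.46 to 0.31 (mean -0.38, SD 0.77).

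Myelin genes were less uniform. The 17 rows of the list had a median of -0.16 (-0.53 on the Cy3 arrays and 0.18 on the Cy5 arrays), with 11 below 0. Mag, myelin-associated glycoprotein, was below 0 on all 8 arrays (mean -0.70, SD 0.71), but mouse 3, at -1.72, stood apart from -0.43, -0.56 and -0.09 in the others. Qdpr, a pteridine reductase enriched in oligodendrocytes, was also below 0 on all 8 (-0.47, SD 0.13). Mbp, myelin basic protein, had means of 0.09 and 0.03 at its 2 rows. Markers of microglia and macrophages had a median of 0.01, and those of endothelium and vessel wall one of -0.25 over the row means. For the latter list the medians in mice 1 to 4 were -0.07, 0.08, 0.03 and 0.13, and those by orientation -0.08 and -0.05, so no decrease can be read from it. Trem2, a microglial receptor, had 0.85 (SD 0.53) with 4 of 4 mice above 0.

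Genes of energy metabolism were mostly below 0 in the mean. For nuclear genes of oxidative phosphorylation 76 of 85 rows had a mean below 0, and 53 of 83 rows with 4 mice were below 0 in all of them (17.6% of all such rows). The median was -0.32, and by orientation -0.66 and 0.11. On the Cy3 arrays 12 of 86 rows were called lower and 2 higher, where 3.4% and 3.57% of all rows were. Ndufa9 and Ndufb5, subunits of complex I, and Cox8a, of cytochrome c oxidase, were below 0 on all 8 arrays, with means of -0.54 (SD 0.40), -0.67 (SD 0.48) and -0.51 (SD 0.12). Cox6a1 had one row above 0 on all 8 arrays (0.73, SD 0.20) and another at -0.48 (SD 0.18), so that the 2 rows of one gene pointed in opposite directions.

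Glycolysis, protein turnover and 14-3-3 genes lay in the same range. In glycolysis 21 of 27 rows were below 0 (median -0.32, with -0.59 on the Cy3 arrays and -0.003 on the Cy5 arrays), and 4 of them were below 0 on all 8 arrays, where 1.32% of all rows were. Aldoa, the aldolase of muscle and neurons, had means of -0.69, -0.52 and -0.43 at its 3 rows. Of 55 rows for ubiquitin ligases and the proteasome 46 had a mean below 0 (median -0.29, with -0.52 and -0.03 by orientation). Rbx1, the RING subunit of cullin ligases, had -0.55, -0.47 and -0.12 at its 3 rows, and Skp1, the cullin 1 adaptor, had -0.55 (SD 0.09). The 6 rows of 14-3-3 proteins, adaptors that bind phosphorylated partners, were all below 0 in the mean (median -0.47, with -0.73 and 0.03 by orientation), with Ywhab at -0.57, -0.42 and -0.28 and Ywhae at -0.51 (SD 0.21). Wnt signalling had a median of 0.07 (23 of 49 rows below 0) and growth factors one of 0.03 (17 of 37), and Igf1r, the receptor for insulin-like growth factor 1, was below 0 on all 8 arrays (-0.40, SD 0.08).

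**Figure D4:**
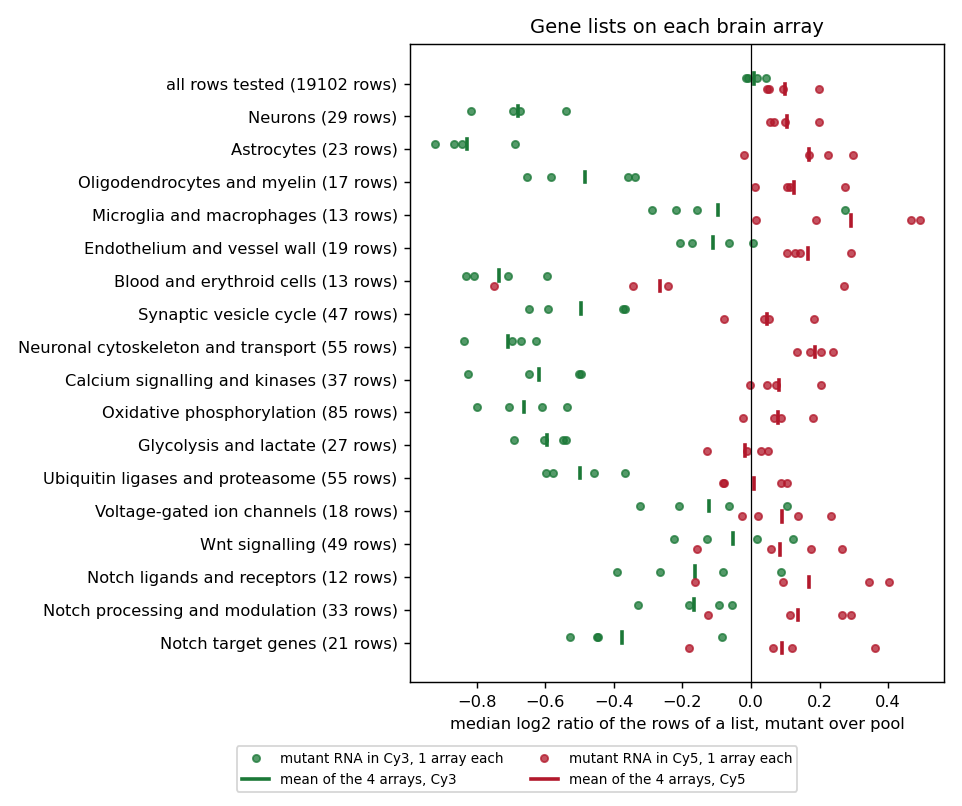
Median log2 ratio (mutant over pool) of the rows of each list on each of the 8 brain arrays, in green with the mutant RNA in Cy3 and in red with it in Cy5, with a tick for the mean of the 4 arrays. Lists such as oxidative phosphorylation and astrocytes lie well below 0 on all 4 Cy3 arrays and near 0 on the Cy5 arrays, whereas blood and erythroid genes lie below 0 on 3 of 4 Cy5 arrays as well. Of the 13 rows of the blood and erythroid list, 6 are of the single gene Hba-a1.

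Alpha globin differed between mice in the same way at several rows. Hba-a1, which encodes the alpha chain of haemoglobin and in whole brain marks blood left in the vessels, had 6 rows. In mouse 2 they lay between -1.27 and -0.77 (median -1.004) and in mouse 3 between -1.45 and -1.10 (median -1.21). In mouse 1 the median was -0.29 and in mouse 4 it was -0.29. At the 5 rows outside the last part of the table, each row had mice 2 and 3 lower than mice 1 and 4. The means over mice were -0.72, -0.61, -0.59, -0.69 and -0.74, with SD of 0.42 to 0.58, and -1.18 (SD 0.35) at the row of uncertain name, none of which passed the test (limma adjusted p = 0.42 for each).

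The difference between mice held in both orientations. On the Cy3 arrays all 6 rows were below 0 in every mouse, with medians of -1.03, -1.77, -1.67 and -0.77 in mice 1 to 4. On the Cy5 arrays the medians were 0.42, -0.37, -0.85 and 0.38, so that mice 2 and 3 were again the lower, and 1, 5, 6 and 2 of the 6 rows were below 0. The rows share 1 target and are not replicates. Of the other erythroid genes, Car2, a carbonic anhydrase also found in oligodendrocytes and the choroid plexus, had -0.41, -0.57 and -0.32 at its 3 rows. Mice 2 and 3 were the lowest at one of these rows and not at the others. Alas2, the erythroid enzyme of haem synthesis, had 0.07 (SD 0.38). Of the 13 rows of the list 10 had a mean below 0, and the median was -0.59, with -0.68 and -0.26 by orientation. These rows cover 5 genes, with 6 rows from Hba-a1 and 3 from Car2, so the list mostly repeats these genes. With the rows of a gene averaged first, the median was -0.37. The part of blood in the results for other genes was not tested.

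Mouse has a pair of alpha globin genes, and the probe table names Hba-a1 only. The RefSeq windows around the starts of Hba-a1 and Hba-a2 on mouse chromosome 11 (GRCm38.p6, plus strand, 300 bases each) are shown because the near-identical copies could not be told apart by gene name alone. Capitals mark the CCAAT box, a TATA-like element (searched as TATAAG) and the core bound by GATA factors (searched as GATAA), each on both strands. The windows are chr11:32283422-32283721 and chr11:32296242-32296541.
Hba-a1: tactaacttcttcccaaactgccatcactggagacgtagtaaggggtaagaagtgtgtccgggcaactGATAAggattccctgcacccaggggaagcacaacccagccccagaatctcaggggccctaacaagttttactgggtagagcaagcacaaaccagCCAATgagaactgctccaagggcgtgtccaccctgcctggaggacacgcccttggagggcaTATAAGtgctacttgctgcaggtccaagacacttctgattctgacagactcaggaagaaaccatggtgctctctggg
Hba-a2: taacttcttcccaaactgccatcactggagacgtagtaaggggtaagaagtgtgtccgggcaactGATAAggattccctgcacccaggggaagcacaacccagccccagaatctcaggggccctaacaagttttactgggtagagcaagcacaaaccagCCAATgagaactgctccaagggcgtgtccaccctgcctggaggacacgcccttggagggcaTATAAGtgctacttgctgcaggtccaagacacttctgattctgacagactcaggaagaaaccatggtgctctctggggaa
Set 3 bases apart, the 2 windows had the same base at 297 of 297 positions. Each held 1 match to each motif. Among all 32851 RefSeq windows, 37.4% held the CCAAT box, 7.43% the TATA-like element and 25.4% the GATA core, and a match is a description of the letters only.

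The order of mice at Hba-a1 was not the same in the other organs, each of which had its own pool. In liver the medians of the 6 rows in mice 1 to 4 were 0.57, 0.04, -0.87 and 0.06, in spleen -0.41, -0.73, 0.04 and -1.12, and in thymus 0.35, -1.06 and -0.75 in mice 1, 3 and 4. Mouse 3 was thus the lowest in brain, liver and thymus and the highest in spleen.

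**Figure D5:**
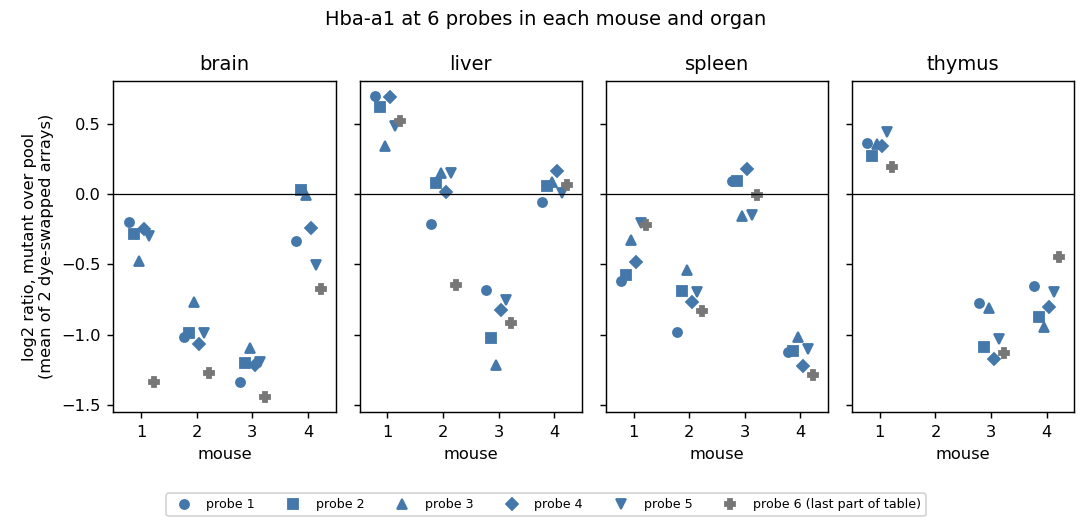
Log2 ratios (mutant over pool, mean of 2 dye-swapped arrays) of the 6 Hba-a1 rows in each mouse, for brain, liver, spleen and thymus, with the row of uncertain name in grey. In brain the 5 blue rows of mice 2 and 3 lie below those of mice 1 and 4. The rows of thymus mouse 2, which had 1 array, are left out.

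Markers of tissues other than brain were measured in few rows. Genes of the choroid plexus and ependyma included Ttr, the thyroxine carrier secreted by the choroid plexus, with -1.12, -0.53, -1.40 and -0.45 in mice 1 to 4 at one row (mean -0.88, SD 0.46). At its second row the ratios were -0.59, -0.60, -0.89 and -0.45 (mean -0.63, SD 0.18) and all 8 arrays were below 0. The list as a whole had a median of 0.08 over 11 rows. Prl, the pituitary hormone prolactin, had 1.36 in mouse 1 and -2.87, -2.59 and -2.50 in the others (mean -1.65, SD 2.02). The 5 rows of B cell markers had a median of 0.48 and the 6 of exocrine pancreas one of 0.59, with none and 1 of their rows below 0. T cell markers had -0.28 over 13 rows (-0.75 and 0.22 by orientation), 5 of them of uncertain name. Without the rows of uncertain name the T cell median was -0.01. Skeletal muscle genes had a median of 0.18 over 10 rows. The part of these tissues in other results was not tested.

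Rows on one side of 0 on every array were few. Of 13895 rows with all 8 values, 183 were below 0 on all 8 arrays (1.32%) and 146 above (1.05%). In 4 of 4 mice, 2443 rows were below 0 (17.6%) and 1476 above (10.6%). Of 201 listed or leading genes with several rows tested, 101 had all rows on the same side of 0 by their mean, 109 on the Cy3 arrays and 91 on the Cy5 arrays.

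Brain was compared with the other organs of the same mice to see which rows were particular to it. No row passed for brain minus liver (0 of 18722, smallest adjusted p = 0.141), brain minus spleen (0 of 18417, 0.281) or brain minus thymus (0 of 18482, 0.573, with 3 thymus mice) in limma, so no leading row can be called particular to brain. At an unadjusted p under 0.05, brain was higher at 1016 and lower at 589 rows against liver, higher at 580 and lower at 538 against spleen, and higher at 1094 and lower at 437 against thymus. The largest contrast of a leading row was that of Lyz2, at 1.05 in brain and -1.03 in spleen (difference 2.07, limma adjusted p = 0.281). This fit did not use the pairing by mouse, and with the mouse as a block in limma the adjusted p was 0.802. The brain value of Lyz2 came from orientation means of 0.04 and 2.06. Fam110b had -1.05 in brain against 0.28 in spleen and -0.10 in liver.

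The pattern on the Cy3 arrays of brain had a partial counterpart in spleen and liver. Row means over the Cy3 arrays of brain correlated with those of spleen (r = 0.40), liver (0.29) and thymus (0.09), and with those over the Cy5 arrays of the same organs at -0.02, -0.19 and -0.05. The organs had pools of their own and share mice and the array design, and the values are a description. The 699 rows lower on the brain Cy3 arrays had medians of -0.62 in spleen, -0.37 in liver and -0.11 in thymus on their Cy3 arrays, and of 0.06, 0.14 and 0.03 on their Cy5 arrays. Lists differed in this. For oxidative phosphorylation the Cy3 medians were -0.66 in brain, -0.45 in spleen and -0.29 in liver, whereas neuronal markers, at -0.74 in brain, had 0.34 in spleen and 0.14 in liver. Channel intensities were not used, so it was not known whether neuronal markers gave signal over background in spleen or liver. These ratios therefore do not show a decrease particular to brain. The difference between organs was not tested for lists.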

How the data were processed

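RNA of 4 Dll1 mutant brains and a wild-type pool was hybridized to cDNA arrays with both dyes. Per the study the slides were scanned and quantified with GenePix, and the authors deposited 1 log2 ratio per spot. Its normalization, background correction and filter are not given in the sources used here. The labels and the study differ on the number and age of the mice, the RNA amount and the platform. Values beyond 12 in size (252 in brain, 1 repeated extreme value per array) were dropped. The 2 arrays of a mouse, technical repeats, entered as their average if neither was missing, and rows with at least 3 mice were tested with limma 3.58.1 in R 4.3.3 at an adjusted p of 0.05. The fit was tested on simulated data. Other tables used Python 3.11.15, pandas 2.3.3 and numpy 2.4.6. Channel intensities were not used here. The number of mice limits the precision. The mice are separate animals.

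The members and gene lists were chosen with earlier results of these data known, and no list was tested. The rule for naming took Dll1, rows past the threshold, the leading 12 higher and 12 lower rows by p among named rows with 4 mice outside the last part of the table, and up to 4 rows per list with the largest mean in size among those with 4 mice on one side of 0. Only some of the rows that this rule picked for the lists, and only some of the lists, are named above. Other rows of these genes and other members of the lists were named after their values were seen. Gene symbols were brought up to date through Entrez IDs, and all 12771 probes matched. The fixed plan did not say whether both arrays of a mouse were needed. Requiring both was adopted after the values were seen, and keeping single arrays is an added alternative. Alternatives concerned mice, orientation, a dye term, centring, scaling, quantile normalization, missing and extreme values, moderation, direction and gene names. The organ contrasts used 4 mice each, and for thymus the 3 with 2 arrays. The same mice gave all organs, so the mouse is a pairing, although mouse deviations in brain correlated with those of the same mouse in another organ at only -0.08 to 0.02.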

Additional observations from a re-analysis of the deposited data

Results flagged for a closer look

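In groups of 4 mice, 1 mouse lay far from the other 3 in 15 of 169 rows and list medians examined. Chance sets apart about 5% of groups of independent values that were not selected. Most rows examined here were picked by their values, and list medians share rows, so that share cannot be set against this count. Mouse 4 was the one apart in 8 of them, mice 2 and 3 in 3 each and mouse 1 in 1.

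Mouse 4 was higher than the rest for Sox6 (2.57 against 0.51 to 0.59), Mib1 (1.22 against 0.20 to 0.31) and Egfr (2.14 against 0.52 to 0.77). It was lower for Nrgn (-1.04 against -0.37 to -0.25), Gria1 (-1.05 against -0.33 to -0.24), Ndufa9 (-1.14 against -0.38 to -0.29) and Ddx6 (-3.65 against -0.49 to -0.15), and nearer to 0 for Slc32a1 (-0.17 against -0.45 to -0.41). Its Cy5 array also lacked the most values, and the part of that array was not tested. Mouse 3 stood apart for Cep295 (1.32 against 0.86 to 0.93), Syp (-0.77 against -0.41 to -0.38) and Cox8a (-0.69 against -0.47 to -0.44). Mouse 2 did for Ncald (1.61 against 0.22 to 0.43), Nr1d1 (1.05 against 0.33 to 0.42) and Rbx1 (-0.78 against -0.48 to -0.45). Mouse 1 did for Mapt (0.13 against 1.12 to 1.29).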

How the results depend on the processing

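The count of 0 rows held in 16 of 18 alternatives, with the smallest adjusted p between 0.0972 and 0.754. The Cy3 arrays alone called 1433 rows (734 higher, 699 lower), and a spread shared by the 4 organs called 107 (99 higher, 8 lower). Leaving out each mouse in turn gave 0 calls each time, with 804 to 1119 higher and 336 to 734 lower rows at an unadjusted p under 0.05. With the mouse as a replicate block, the organ contrasts called 0, 0 and 0 rows, and leaving out each mouse likewise gave 0. The cause of these differences was not tested.

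Read as Cy5 over Cy3, the mean turned for Igsf3 (-0.9996), Mlst8 (-0.0086), Cep295 (-0.29), Spock1 (-0.82), Gprc5c (-0.10), Dpp3 (-0.55), Pnliprp1 (-0.67), Prr13 (0.34), Fam110b (0.23), Foxj1 (0.57), Cab39 (0.55), Ank (0.36), Cyfip2 (0.49), Ghitm (0.45), Adss (0.37), Pafah1b1 (0.52) and the second Dll1 row (0.25), and so did the medians of all 26 lists below 0, among them neurons (0.40), astrocytes (0.44) and oxidative phosphorylation (0.36), while 2 lists turned the other way. In this reading 2188 rows were higher and 1702 lower at an unadjusted p under 0.05 from limma, and the smallest adjusted p was 0.173. Under mutant over pool, the first Dll1 row turned on the Cy3 arrays (-0.38). With gene names at the row numbers as listed, the medians of these 3 named lists were 0.06, -0.10 and -0.10.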
